A study of Rattus norvegicus with 2 samples.

Results

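The 10 genes described here encode inflammatory cytokines, chemokines and related products of NF-kB signalling. They were chosen by symbol, with earlier results of these data known: Il1a, Il1b, Tnf, Ccl2, Ccl3, Ccl4, Cxcl1, Cxcl2, Ptgs2 and C3. They are 10 of the 21224 gene rows of the deposited table, each symbol on 1 row, and all 10 passed the filter on low values, a mean of both libraries of 1 FPKM or more, as did 13172 rows in all. The samples were cortical neurons of rat embryos at day E18. One library came from cells given a negative control small interfering RNA (siNC) and the other from cells given a small interfering RNA against Ythdf3 (siYthdf3), whose product reads m6A, a methylation of messenger RNA. The labels give no strain, dose, time after transfection or hypoxic sample, and they do not say which other cells the cultures held.

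FPKM scales the reads of a gene by its length and by the reads of the library, so levels can be set side by side between genes. Each group had 1 library, and no difference below has a replicate check or a test. Intervals are exact 95% intervals that cover counting error only, and they are too narrow where several reads are copies of 1 molecule. Log2 ratios are of siYthdf3 over siNC after adding 0.5 FPKM to both values, which pulls the ratios of low genes towards 0.

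NF-kB is a family of transcription factors that IkB proteins hold in the cytoplasm until the IKK kinases, acting downstream of interleukin-1, TNF and Toll-like receptors, release them. Interleukin-1 and TNF are both products and activators of this pathway, chemokines draw leukocytes, Ptgs2 makes prostaglandins and C3 is the central protein of complement. In brain tissue microglia and macrophages are the best known source of interleukin-1, TNF, Ccl3 and Ccl4, while astrocytes are known to make Ccl2, Cxcl1 and C3. Neurons express Ptgs2 with synaptic activity.

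The libraries held 15392218 (siNC) and 22586543 (siYthdf3) reads assigned to genes. Ythdf3, the targeted gene, was at 9.38 FPKM in siNC and 6.93 FPKM in siYthdf3, and Wwtr1, named in the title of the series, was at 6.23 FPKM and 2.96 FPKM. All 12 pan-neuronal, excitatory and inhibitory neuron markers looked for had a mean of at least 1 FPKM, with Map2 at 159 FPKM and 209 FPKM. Markers of other cells were also present. The astrocyte filament gene Gfap was at 68.2 FPKM in siNC and 141 FPKM in siYthdf3, and Adgre1, which marks macrophages and microglia, was at 10.6 FPKM and 5.56 FPKM. Other markers of these cells did not all share these directions, as given below. The astrocyte gene Gja1 was at 11.5 FPKM and 6.97 FPKM, and the microglial gene P2ry12 at 0.858 FPKM and 1.24 FPKM.

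Of the 10 genes, 9 were lower in siYthdf3 and 1, C3, was higher, where 51.9% of all genes at the filter had a log2 ratio below 0. The 9 include Tnf and Cxcl1, for which no difference beyond counting error was seen. The interleukin-1 genes Il1b and Il1a had the lowest ratios, the CC chemokine genes and Cxcl2 followed, and Cxcl1, the most abundant of the 10, was nearly level. No gene was 2-fold apart in either direction, where 0.896% of all genes at the filter were at least 2-fold lower and 0.706% at least 2-fold higher. At least 1.5-fold lower were 5 genes (Il1a, Il1b, Ccl3, Ccl4 and Cxcl2), against 3.95% of all genes, and at least 1.5-fold higher was 1 gene (C3), against 2.41%. Of the 5, only Il1a and Il1b stayed past 1.5-fold once a trend with gene length, described below, was removed. Ccl4 then lay almost at the cut. The median log2 ratio of the 10 genes was -0.56, and that of all 13172 genes was -0.01, with quartiles of -0.17 and 0.14.

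The counting interval of the FPKM ratio lay below 1 for 7 of the 10 genes and above 1 for 1 gene, and it included 1 for Tnf and Cxcl1. Such intervals are common in these libraries. They lay below 1 for 22.2% and above 1 for 20% of all genes at the filter. Among the 9200 genes with 73 to 2681 reads over both libraries, the range that the 10 genes span, the shares were 20.4% and 15.6%.

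**Figure D1:**
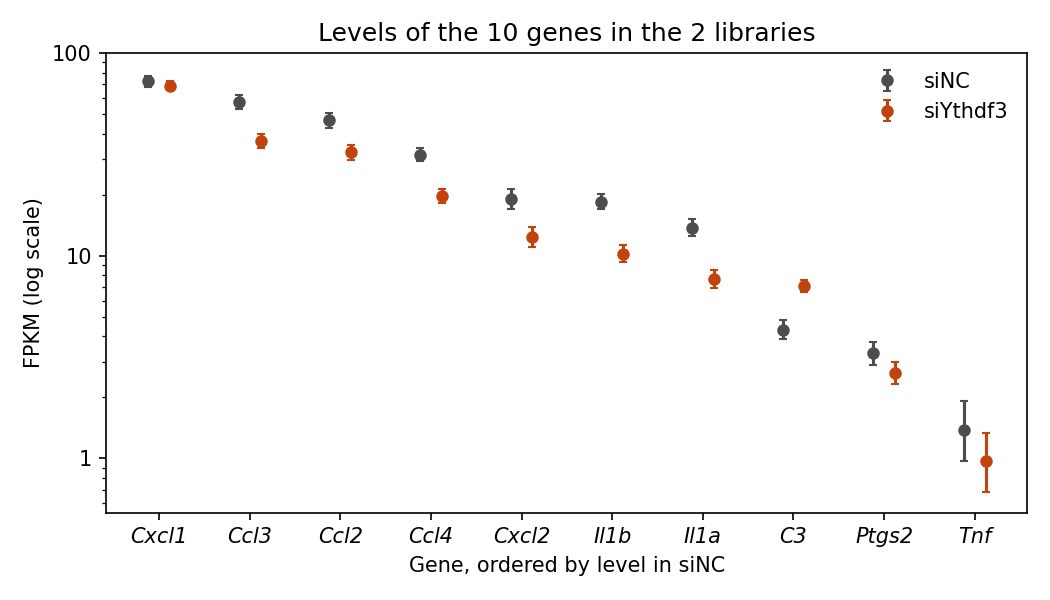
FPKM of the 10 genes (log scale) in siNC (grey) and siYthdf3 (orange), 1 library each, ordered by their level in siNC, with bars for exact 95% Poisson intervals of the reads. The siYthdf3 point lies below the siNC point for 9 genes and above it for C3. The bars of both libraries overlap for Cxcl1, Ptgs2 and Tnf.

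The order of the levels was the same in both libraries for all 10 genes, from Cxcl1 down through Ccl3, Ccl2, Ccl4, Cxcl2, Il1b, Il1a, C3 and Ptgs2 to Tnf. Of the 9 steps between neighbours in this order, 1 had overlapping counting intervals in siNC (Cxcl2 and Il1b), and 3 did in siYthdf3 (Ccl3 and Ccl2, Cxcl2 and Il1b, Il1a and C3). C3 thus stood well below Il1a in siNC and within counting error of it in siYthdf3. The summed level of the 10 genes was 268 FPKM in siNC and 199 FPKM in siYthdf3, a ratio of 0.741. Cxcl1 alone made up 27.0% of that sum in siNC and 34.7% in siYthdf3, and without it the sums were 195 FPKM and 130 FPKM.

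The promoters of 4 of the genes are shown because they form a pair of neighbours with unlike ratios (Cxcl1 and Cxcl2) and a pair of neighbours with like ratios (Il1a and Il1b). The sequences are the 250 bases before each gene's start in RefSeq, build GRCr8, 5′ to 3′ on the gene's strand, which for all 4 genes is the minus strand. They lie at chr14:17479322-17479571 (Cxcl1), chr14:17467256-17467505 (Cxcl2), chr3:136990018-136990267 (Il1a) and chr3:137036582-137036831 (Il1b). Capitals mark matches, on either strand, to the NF-kB consensus, to TATAAA (the core of the TATA box) and to TGANTCA (the AP-1 element).
Cxcl1: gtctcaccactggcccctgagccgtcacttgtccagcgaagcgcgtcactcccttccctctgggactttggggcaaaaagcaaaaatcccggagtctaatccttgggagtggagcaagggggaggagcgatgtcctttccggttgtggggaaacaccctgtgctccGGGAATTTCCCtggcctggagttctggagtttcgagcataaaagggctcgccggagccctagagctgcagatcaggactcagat
Cxcl2: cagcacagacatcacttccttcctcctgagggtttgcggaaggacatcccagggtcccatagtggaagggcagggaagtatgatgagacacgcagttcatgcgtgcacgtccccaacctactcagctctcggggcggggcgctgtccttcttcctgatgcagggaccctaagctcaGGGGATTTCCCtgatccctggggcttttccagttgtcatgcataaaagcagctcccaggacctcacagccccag
Il1a: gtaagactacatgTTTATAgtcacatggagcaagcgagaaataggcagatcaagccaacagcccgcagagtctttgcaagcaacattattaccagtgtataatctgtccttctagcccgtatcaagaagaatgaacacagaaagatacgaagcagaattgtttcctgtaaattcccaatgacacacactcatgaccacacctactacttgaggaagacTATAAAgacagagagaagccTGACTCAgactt
Il1b: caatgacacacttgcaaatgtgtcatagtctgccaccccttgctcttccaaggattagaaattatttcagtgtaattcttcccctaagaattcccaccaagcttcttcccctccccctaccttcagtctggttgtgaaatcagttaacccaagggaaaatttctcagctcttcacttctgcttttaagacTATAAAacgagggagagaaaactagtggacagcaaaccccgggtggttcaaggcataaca

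Both CXC promoters hold an NF-kB consensus match. In Cxcl1 it begins 84 bases before the start, and in Cxcl2 it begins 74 bases before it. Each is a cluster of overlapping matches on both strands and is counted once per promoter. The Il1a window holds TATAAA at 32 bases before the start, a second TATAAA on the opposite strand at 237 bases and TGANTCA at 12 bases, which also reads on both strands. The Il1b window holds TATAAA at 60 bases. RefSeq promoters matched 7 of the 10 genes by symbol, and of these 2 held the NF-kB consensus (Cxcl1 and Cxcl2), 3 TATAAA (Il1a, Il1b and Tnf, the last at 46 bases) and 1 TGANTCA (Il1a). Over all 33469 RefSeq promoters, cut to the same 250 bases, the shares were 6.33%, 12.9% and 6.34%. A window without a match says only that these letters are not in it.

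Interleukin-1 is made as a pair of ligands for the same receptor. Gene coordinates from here on are those of the deposited table, for which no build was found in the labels. Il1b (ENSRNOG00000004649, chromosome 3, 116577010 to 116583406, minus strand) encodes interleukin-1 beta, which must be cleaved to become active. It was at 18.5 FPKM in siNC, from 531 reads, and 10.2 FPKM in siYthdf3, from 431 reads. The siYthdf3 level was the lower, and the intervals of the levels did not overlap (16.9 to 20.1 FPKM against 9.27 to 11.2 FPKM). The ratio was 0.553 (interval 0.486 to 0.629), and 1.78% of all genes at the filter had a log2 ratio as low as its -0.82 or lower.

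Il1a (ENSRNOG00000004575, chromosome 3, 116526604 to 116536822, minus strand) encodes interleukin-1 alpha, which is active without that cleavage. It was at 13.7 FPKM in siNC and 7.71 FPKM in siYthdf3, from 442 and 364 reads. The ratio was 0.561 (interval 0.487 to 0.646). The ratios of Il1a and Il1b were 1.01-fold apart (interval 0.837 to 1.23), so a difference between them was not detectable at this depth. The genes lie 40187 bases apart on the same strand.

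Tnf (ENSRNOG00000070745, chromosome 20, 3622011 to 3624629, plus strand) encodes tumour necrosis factor, the other classical activator of NF-kB. It was the lowest of the 10 genes, at 1.39 FPKM in siNC and 0.971 FPKM in siYthdf3, from 36 and 37 reads. The levels' intervals overlapped. The ratio of 0.700 had an interval of 0.431 to 1.14, which holds both a level ratio and the ratio of Il1b, so a difference was not detectable at this depth.

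The CC chemokines attract monocytes, macrophages and T cells. Ccl2 (ENSRNOG00000007159, chromosome 10, 67005424 to 67007226, plus strand), the main monocyte attractant, was at 46.5 FPKM in siNC and 32.4 FPKM in siYthdf3. With 561 and 573 reads, the ratio was 0.696 (interval 0.618 to 0.783). Its log2 ratio of -0.52 fell short of 1.5-fold.

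Ccl3 (ENSRNOG00000011205, chromosome 10, 68451388 to 68452938, minus strand), also called MIP-1 alpha, was at 57.2 FPKM in siNC and 36.7 FPKM in siYthdf3, a ratio of 0.641 (interval 0.574 to 0.717). Ccl4 (ENSRNOG00000011406, chromosome 10, 68452052 to 68468231, plus strand), also called MIP-1 beta, was at 31.5 FPKM and 19.7 FPKM, a ratio of 0.624 (interval 0.559 to 0.698). Both were lower in siYthdf3, with no overlap of the levels' intervals. The rows of the pair overlap by 887 bases on opposite strands, measured between the ends of the rows, so the shared exon sequence is not known. No label says whether the counting used strand, so the division of reads between them is uncertain. With their reads pooled, 1332 in siNC and 1237 in siYthdf3, the ratio was 0.633 (interval 0.585 to 0.684). Any read counted for both rows would be in this pool more than once and would make its interval too narrow.

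The CXC chemokines Cxcl1 and Cxcl2 attract neutrophils through Cxcr2. Cxcl1 (ENSRNOG00000002802, chromosome 14, 17193365 to 17195215, minus strand) was at 72.4 FPKM in siNC and 68.9 FPKM in siYthdf3, from 1119 and 1562 reads. It was the most deeply counted of the 10 genes, and its levels' intervals overlapped. The ratio was 0.951 (interval 0.880 to 1.03), and its log2 ratio of -0.07 was 0.01 after the trend with gene length described below was removed, so no direction is given.

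Cxcl2 (ENSRNOG00000002792, chromosome 14, 17181062 to 17183075, minus strand) lies 10289 bases from Cxcl1 on the same strand. It was at 19.0 FPKM in siNC (314 reads) and 12.3 FPKM in siYthdf3 (299 reads), a ratio of 0.649 (interval 0.552 to 0.763). The levels' intervals did not overlap. The ratio of Cxcl1 was 1.47 times that of Cxcl2 (interval 1.22 to 1.75), a difference beyond counting error between genes that share the NF-kB consensus in the windows printed above. These genes are close in sequence, and reads that fit several of them could be divided unevenly.

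**Figure D2:**
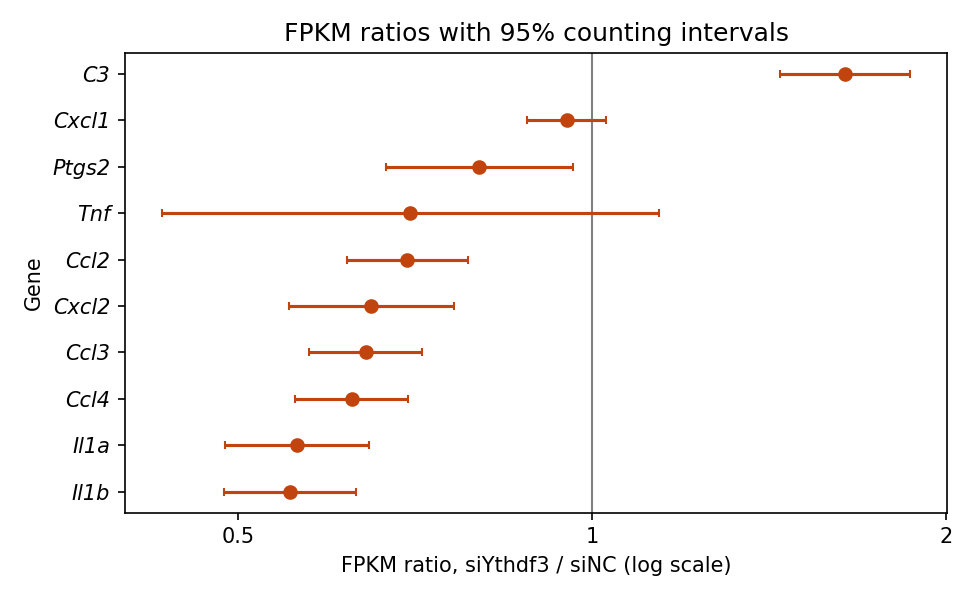
FPKM ratio of siYthdf3 over siNC (log scale) for each of the 10 genes, 1 library per group, with bars for exact 95% counting intervals and a vertical line at a ratio of 1. The intervals of 7 genes lie below 1, that of C3 lies above 1, and those of Tnf and Cxcl1 include 1.

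Ptgs2 (ENSRNOG00000002525, chromosome 13, 62163932 to 62172188, plus strand) encodes cyclooxygenase-2, the inducible enzyme of prostaglandin synthesis. It was at 3.29 FPKM in siNC and 2.64 FPKM in siYthdf3, from 222 and 261 reads. The intervals of the levels overlapped, while that of the ratio, 0.801, lay just below 1 (interval 0.667 to 0.963). Its log2 ratio of -0.27 was reached or passed downwards by 14.6% of all genes.

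C3 (ENSRNOG00000046834, chromosome 9, 2087437 to 2114429, minus strand) encodes the complement protein on which all activation routes meet. It was at 4.32 FPKM in siNC and 7.08 FPKM in siYthdf3, from 348 and 838 reads. The siYthdf3 level was the higher, with no overlap of the levels' intervals. The ratio was 1.64 (interval 1.45 to 1.86), and 1.83% of all genes had a log2 ratio as high as its 0.65 or higher. C3 was thus about as far into the upper tail of all genes as Il1a, with 1.96% at or below it, was into the lower tail.

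**Figure D3:**
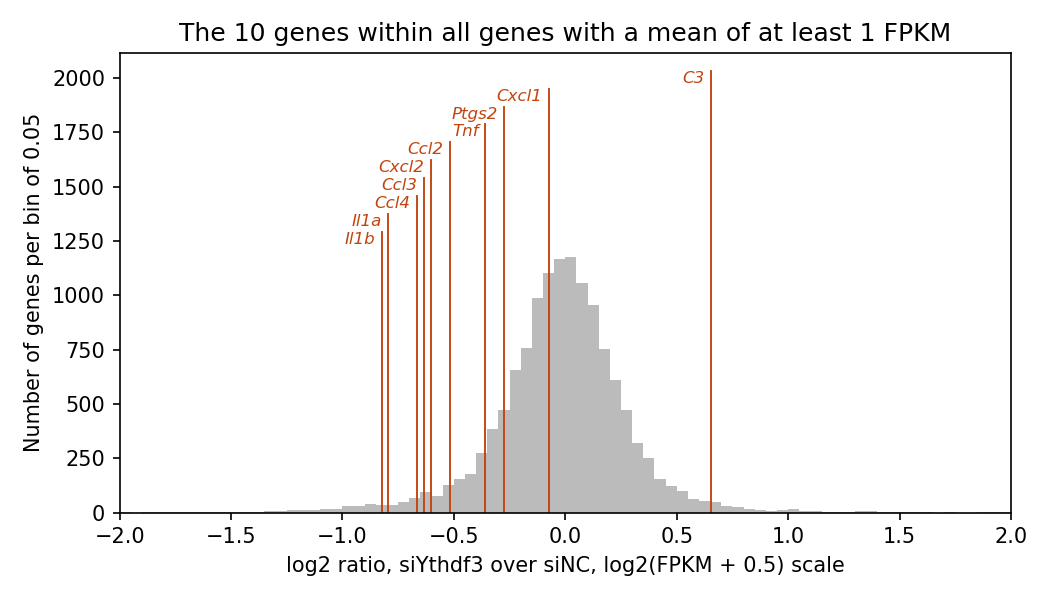
Number of genes per bin of 0.05 in log2 ratio, siYthdf3 over siNC, among the 13172 genes at the filter, with the 10 genes as labelled orange lines whose heights carry no value. The 27 genes beyond 2 in either direction lie outside the axis. Of the 10 genes, 9 lie left of 0, as do 51.9% of all genes at the filter, and C3 lies right of it at 0.65.

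Across the table shorter genes had lower ratios, and the 10 genes had row lengths of 754 to 5237 bases, with 8 of them in the 4 shortest of 10 length bins. After the median log2 ratio of each gene's bin was subtracted, Il1b was at -0.75, Il1a at -0.74, Ccl4 at -0.58, Ccl3 at -0.56, Cxcl2 at -0.52, Ccl2 at -0.44 and C3 at 0.61. The median of the 10 genes was then -0.48, beside 0 for all genes by construction, and 8 of the 10 were below 0. Il1a and Il1b were still at least 1.5-fold lower and C3 at least 1.5-fold higher, while Ccl3, Ccl4 and Cxcl2 fell short of 1.5-fold. Ccl4 missed the cut so narrowly that this does not set it apart from the genes past it. The shares of all genes past 1.5-fold after this removal were not computed.

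The other genes of the pathway were read from 10 lists of receptors, signalling proteins and further targets, of whose 149 genes 135 matched a symbol and 88 had a mean of at least 1 FPKM. Of the 88, 2 were at least 2-fold lower and 1 at least 2-fold higher, 20 had a counting interval below 1 and 14 above 1, and the median log2 ratio was -0.02. The intervals below and above 1 make up 22.7% and 15.9% of the 88, beside 22.2% and 20% of all genes.

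Receptors of these ligands were at low levels. Tnfrsf1a, the main TNF receptor, was at 5.33 FPKM in siNC and 5.88 FPKM in siYthdf3, and Il1r1, the interleukin-1 receptor, at 2.66 FPKM and 2.32 FPKM. Its partner Il1rap was at 1.92 FPKM and 2.03 FPKM. The chemokine receptor Cxcr2 had 0 and 1 reads, and the C3a receptor C3ar1 21 and 24 reads. These receptors were picked as partners of the ligands, outside the rule for named genes. Of the 5 receptor genes at the filter, none of the counting intervals excluded 1. The largest differences in log2 ratio were those of the prostaglandin E receptor Ptger4 at 0.45, Il1r1 at -0.16 and Ptger1 at -0.14.

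Among 15 genes between the receptors and IKK, 2 intervals lay below 1 and 2 above. The endotoxin co-receptor Cd14 was at -0.64 in log2 ratio, the interleukin-1 receptor kinase Irak1 at -0.54, at 25.2 FPKM in siNC and 17.2 FPKM in siYthdf3, and Irak2 at -0.27. The NF-kB subunits were close to level. Of the 4 at the filter, Nfkb1 was at 0.24, with an interval above 1, and Nfkb2, Relb and Rela were at 0.09, 0.08 and -0.01. Of 9 inhibitors and feedback genes, Otulin, which removes linear ubiquitin, was at 0.51, Nfkbiz at -0.27 and Nfkbie at -0.23. Nfkbia, which encodes IkB alpha and is itself a rapid target of NF-kB, was at 33.9 FPKM in siNC and 33.3 FPKM in siYthdf3, and Tnfaip3, another feedback target, was at -0.05; both, like Rela, were named with their values known.

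Further NF-kB target genes went both ways. Of 15 at the filter, 5 intervals lay below 1 and 4 above, with a median log2 ratio of 0.05. The matrix proteases Mmp3 and Mmp9 stood at opposite ends. Mmp3 was at 1.28 FPKM in siNC and 4.48 FPKM in siYthdf3, a log2 ratio of 1.49, while Mmp9 was at 4.85 FPKM and 2.53 FPKM, a log2 ratio of -0.82. The urokinase gene Plau was at -0.70. Chosen after their values were seen, Nos2, the inducible nitric oxide synthase, was at 21.5 FPKM and 13.8 FPKM, and Lcn2, a secreted iron-binding protein of reactive astrocytes, at 26.7 FPKM and 38.3 FPKM.

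Other cytokines and chemokines at the filter numbered 15, with 5 intervals below 1 and 2 above. The colony-stimulating factor genes Csf3 and Csf2 were at -1.23 and -0.92 in log2 ratio, on 60 and 29 reads for Csf3 and 23 and 14 for Csf2. Csf1, named with its value known, was at 43.3 FPKM in siNC and 42.2 FPKM in siYthdf3. The monocyte attractant Ccl12 was at -1.49, on 21 and 7 reads. In the inflammasome and processing list, where the 5 genes at the filter had 1 interval below 1, Casp4 was at -0.23, Capn2 at -0.20 and Gsdmd, the pore-forming protein of pyroptosis, at 0.04. The adaptor Pycard and Casp1, which cleaves interleukin-1 beta, had 6 and 5 reads and 5 and 5 reads, and were named for their role, outside the rule.

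Among 4 prostaglandin genes at the filter, 2 intervals lay below 1. Hpgds, the haematopoietic prostaglandin D synthase, was at 4.94 FPKM in siNC and 2.84 FPKM in siYthdf3, Ptges3 was at -0.19 and Ptges2 at -0.08. Of 7 complement genes at the filter, 3 intervals lay above 1 and 1 below. Clu (clusterin), an inhibitor of the terminal pathway, was at 14.3 FPKM and 22.4 FPKM, a log2 ratio of 0.63 close to that of C3, Cd46 was at 0.30, and Cfp (properdin), which stabilises the C3 convertase, was at -0.45.

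**Figure D4:**
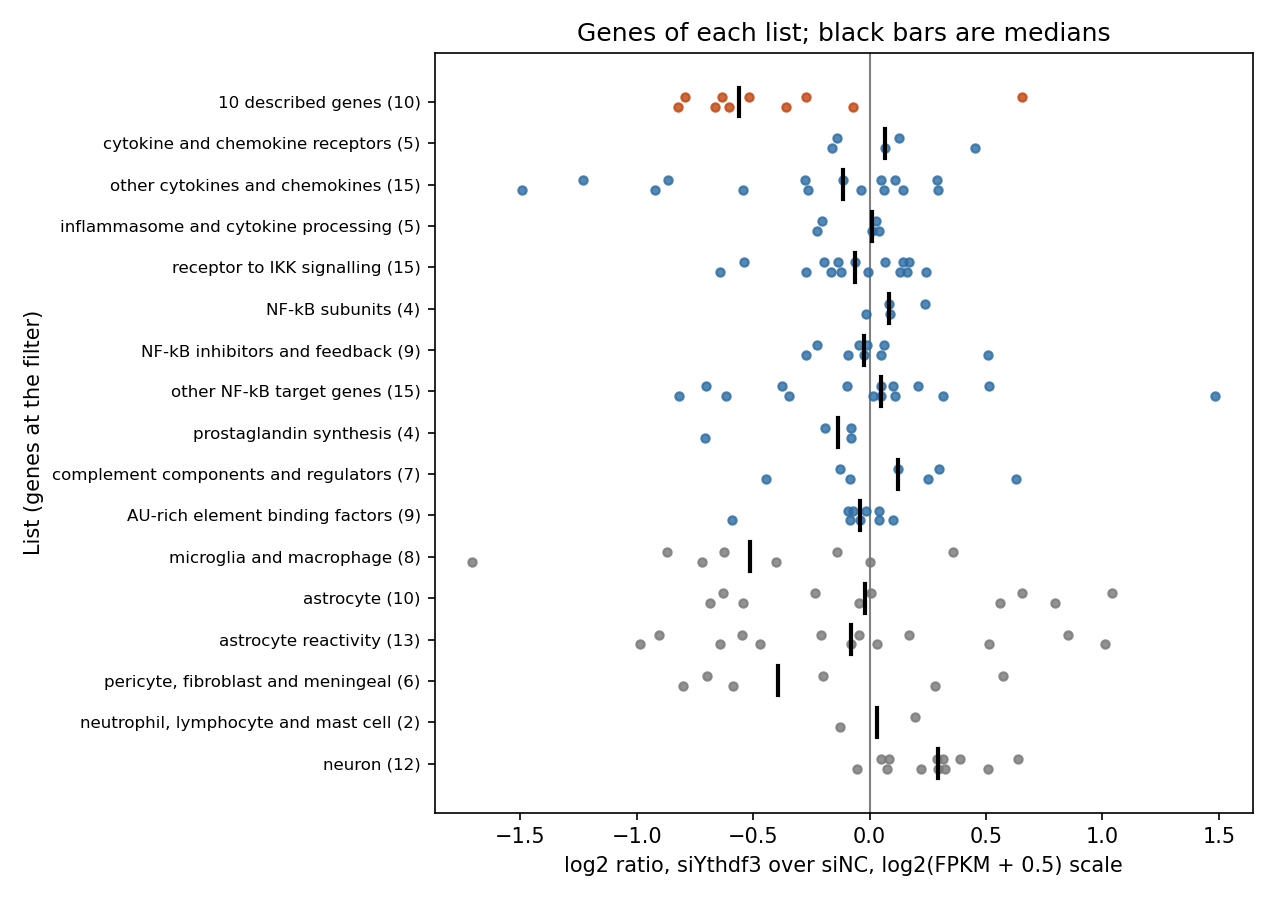
Log2 ratio of siYthdf3 over siNC for each gene at the filter, by list, with the number of genes in brackets and black bars for medians (orange, the 10 genes; blue, pathway lists; grey, cell type markers). The 10 genes and the microglia and macrophage markers have medians of -0.56 and -0.51, and the medians of the 10 pathway lists lie between -0.14 and 0.12. Those of the other plotted cell type lists run from -0.39 (pericyte, fibroblast and meningeal) to 0.29 (neuron).

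Markers of the cells known to make these cytokines differed as well. Of 15 microglia and macrophage markers matched, the summed level was 30.0 FPKM in siNC and 19.1 FPKM in siYthdf3, a ratio of 0.638, and 8 were at the filter, with 6 below 0, 4 intervals below 1 and none above. Of all genes at the filter, 51.9% were below 0, and 22.2% and 20% had intervals below and above 1. Adgre1 was at 10.6 FPKM and 5.56 FPKM, a ratio of 0.526 (interval 0.461 to 0.599), Aif1 at 2.36 FPKM and 1.23 FPKM, and Tyrobp at 3.32 FPKM and 0.670 FPKM, on 27 and 8 reads. The leukocyte gene Ptprc, named with its value known, was at 1.32 FPKM and 0.682 FPKM, and Csf1r, under the filter, at 0.892 FPKM and 0.434 FPKM. Not all markers of the list shared this. P2ry12 was at 0.858 FPKM and 1.24 FPKM, Cx3cr1 had 2 and 0 reads, and C1qa and C1qb, named with their values known, had at most 3 reads in either library. The part of these cells in the lower levels of Il1a, Il1b, Ccl3 and Ccl4 was not tested. In bulk RNA, fewer cells of a type and less RNA per cell cannot be told apart.

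The interval counts of this paragraph stand beside shares of 20% above 1 and 22.2% below 1 over all genes at the filter. Astrocyte markers lay on both sides of 0. Of 10, all at the filter, 4 intervals lay above 1 and 3 below, with a median log2 ratio of -0.02 and summed levels of 195 FPKM in siNC and 263 FPKM in siYthdf3. Gfap alone, at 68.2 FPKM in siNC and 141 FPKM in siYthdf3, rose by more than this sum, so the other markers together did not rise. Gfap was at 1.04, the glutamate transporter Slc1a2 at 0.80 and the gap junction gene Gja1 at -0.68, and the water channel Aqp4 and the folate enzyme Aldh1l1 were at 0.01 and -0.23. The part of these cells in the higher level of C3 was not tested. Endothelial markers were near 0, with 8 matched genes summing to 1.47 FPKM and 1.41 FPKM, among them Pecam1, Cdh5, Cldn5 and Flt1 with at most 43 reads in either library. Of the neutrophil, lymphocyte and mast cell list, 9 of 14 symbols matched, with Ngp at 0 and 3 reads, and 2 were at the filter, Kit at 0.20 and Fcer1g, which macrophages and microglia also express, at -0.13. Pericyte, fibroblast and meningeal markers, 9 of 10 matched, summed to 136 FPKM and 161 FPKM, and the 6 at the filter had a median log2 ratio of -0.39, with 2 intervals above 1 and 3 below. Col3a1 was at -0.80, Col1a2 at -0.70, Pdgfrb at -0.59 and Col1a1 at -0.20, and Rgs5 and Kcnj8 had at most 6 reads in either library. The intervals above 1 were those of Acta2 and Myh11, named with their values known. Acta2, at 121 FPKM and 147 FPKM, made up most of the sum, and Myh11 was at 5.02 FPKM and 7.70 FPKM. The 12 neuron markers summed to 1037 FPKM and 1191 FPKM, with 9 intervals above 1 and 1 below, and Slc17a7, Nefm and Map2 at 0.64, 0.51 and 0.39. Snap25 was at 0.30, Rbfox3 at 0.05 and Tubb3 at -0.05.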

How the data were processed

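Messenger RNA was measured in 1 siNC and 1 siYthdf3 library of E18 rat cortical neurons, with the groups taken from the titles. Libraries were made with a kit that tags cDNA molecules with random identifiers, per the labels' protocols. The submitters' processing notes name STAR 2.7.6a, StringTie 2.1.4, fastp 0.23.2, edgeR 3.40.2, and Subread 1.5.1 with featureCounts. Not given in the sources used here are the genome build, the strand setting and the use of the identifiers. The authors deposited FPKM values per gene and library, per the file headers. Multiplied by length, 100% of the values above 0 were whole multiples of a step fixed for each library, within 0.05 of a read, and these multiples are the reads used here. A gene at 0 has an upper limit of 3 reads (for a length of 1 kilobase 0.195 FPKM in siNC and 0.133 FPKM in siYthdf3).

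Computed here were log2 ratios with a pseudocount of 0.5 FPKM, a filter at a mean of 1 FPKM, and exact 95% intervals of ratios, from the Clopper-Pearson interval of siYthdf3's part in the gene's reads. Intervals of single levels are exact Poisson intervals, and those between genes are exact conditional odds ratio intervals. Rules of 2-fold and 1.5-fold replaced tests, since 1 library per group allows none. The calculation was checked on simulated data. The members and lists were chosen with earlier results of these data known. Named genes are the 10 members, Ythdf3, Wwtr1, genes of each list that were 2-fold apart or among its 3 largest differences at the filter, and the first 4 markers of each cell type where matched; others are marked. Of the 234 other genes listed, 210 matched a symbol. Some values are not reported here. Promoters came from a RefSeq table of GRCr8. Alternatives were other pseudocounts, filters, scalings and fold rules, a 99% interval and, chosen after seeing the data, removal of a length trend and pooling of Ccl3 and Ccl4. Python 3.11.15, numpy 2.4.6, pandas 2.3.3, scipy 1.17.1 and matplotlib 3.10.9 were used.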

Additional observations from a re-analysis of the deposited data

How the results depend on the processing

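The median log2 ratio of the 10 genes was -0.56 and ranged from -0.62 to -0.48 over 9 alternatives (pseudocounts of 0.1 and 1 FPKM, no filter, a mean of at least 5 FPKM, median centring, TPM, scaling by reads outside the top 20 and mitochondrial genes, removal of the length trend, and Ccl3 and Ccl4 pooled). All 60 values of single members under 6 of these stayed within their counting intervals, and 1 changed sign, Cxcl1 at 0.01 with the length trend removed. Under the 1.5-fold rule 5 members were lower and 1 was higher, against 0 and 0 at 2-fold, by construction of the looser rule. With 99% intervals, 6 lay below 1 and 1 above, and the shares of all genes at this level were not computed. Of 80 values of pathway list medians, 10 changed sign, all in lists near 0 (receptors, inflammasome, receptor to IKK, inhibitors and AU-rich element binding factors), for which no direction is given. No paired analysis was possible because each group had 1 library. Depth limits Tnf most, with 73 reads in all, and receptors and inflammasome genes with a few reads each.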

Other observations

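Genes next to the chemokine members were looked at after the members' values were seen, as all Ccl and Cxcl genes within 150000 bases. In the CXC group on chromosome 14, Cxcl3, which lies 74930 bases from Cxcl1, was at 47.5 FPKM in siNC and 32.5 FPKM in siYthdf3, a ratio of 0.683 (interval 0.629 to 0.742). Its ratio was 1.05 times that of Cxcl2 (interval 0.877 to 1.26), while that of Cxcl1 was 1.39 times that of Cxcl3 (interval 1.24 to 1.56). Cxcl6, at 115210 bases from Cxcl1, had a ratio of 0.786 (interval 0.566 to 1.09). Cxcl1 thus stood apart from Cxcl2 and Cxcl3 in these 2 libraries, though it lies between them. Beside Ccl2, Ccl7 lies 9219 bases away and was at 4.15 FPKM in siNC and 4.51 FPKM in siYthdf3, and its ratio was 1.56 times that of Ccl2 (interval 1.07 to 2.30). Ccl12, 63003 bases from Ccl2, had a ratio of 0.227 (interval 0.0816 to 0.555) on 21 and 7 reads, and Ccl1, at 121104 bases, had 1 and 4 reads. Near Ccl3 and Ccl4, Ccl5, Ccl6 and Ccl9 had 7 or 8 reads in siNC and 7 to 23 in siYthdf3, with intervals that include 1.

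Cytokine messenger RNAs carry AU-rich elements on which decay and stabilising factors act. All 9 genes of such factors that were looked for had a mean of at least 1 FPKM, with 2 intervals below 1 and 1 above. Zfp36l2, which promotes decay, was at 3.29 FPKM in siNC and 2.01 FPKM in siYthdf3, a log2 ratio of -0.59, and Celf1 and Hnrnpd were at 0.10 and -0.09. Genes of astrocyte reactivity went both ways. Of 13 at the filter, 4 intervals lay above 1 and 5 below, beside 20% and 22.2% of all genes at the filter. The hyaluronan receptor gene Cd44 was at 1.01, Vim at -0.99, the interferon-induced GTPase gene Gbp2 at -0.91 and Lcn2 at 0.51, and Steap4 rested on 3 and 22 reads.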
